A study of Mus musculus with 4 samples.

Results

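The miR-30 family is a set of microRNAs (miRNAs, short RNAs that lower the output of the mRNAs they pair with) that share 1 seed. It was followed here in mouse liver over genotype and time of day. The 5 members on the array were mmu-miR-30a, mmu-miR-30b, mmu-miR-30c, mmu-miR-30d and mmu-miR-30e, of 611 mouse miRNAs with probes. They were chosen by name, by a rule that used no measured value, though earlier results of these data were known. Their star (passenger) strands were kept apart. RNA came from liver of male WT mice and male Clock mutant mice that carried the Clock△19 allele, at 6 to 8 weeks of age, housed singly under 12 h of light and 12 h of dark for 2 weeks. Mice were killed at zeitgeber time 2 (ZT2, 2 h after lights-on) or ZT14 (2 h after lights-off), and the RNA of 3 mice of a group was pooled. Each of the 4 groups, WT or Clock mutant at either time, was therefore 1 pool on 1 array. The spread between mice cannot be seen in these data. All 4 arrays were on 1 slide. The array holds no probe for the Clock mRNA, so the genotype was not checked from the data.

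A miRNA finds its targets mainly through its seed, the bases near its 5′ end, so miRNAs of 1 seed can act on overlapping sets of mRNAs. The miR-30 family is abundant in many epithelia and in liver. Its members are known to act on genes of autophagy, lipoprotein export, Notch signalling and cell identity. CLOCK is a transcription factor of the circadian oscillator, and the Clock△19 protein binds its partner but activates transcription poorly.

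The mature sequences are shown because the seed defines the family and the bases outside it set the members apart for the probes. RefSeq (build GRCm38.p6) gave a mature sequence for 3 of the 5 members. Capitals mark the seed, bases 2 to 8 counted from the 5′ end.
mmu-miR-30a-5p: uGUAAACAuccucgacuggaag
mmu-miR-30c-5p: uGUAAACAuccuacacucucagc
mmu-miR-30e-5p: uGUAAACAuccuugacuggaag
mmu-miR-384-5p: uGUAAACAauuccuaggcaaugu
The fourth sequence, mmu-miR-384-5p, is the only other mature miRNA of that table with the same seed, and the array carries it. Over the 22 shared bases, mmu-miR-30e differs from mmu-miR-30a by 1 base, C13U. Between mmu-miR-30a and mmu-miR-30c there are 5 differences: C13A, G14C, G18C, G19U and A20C. All of these lie outside the seed. With 1 base between mmu-miR-30a and mmu-miR-30e, their probes may share part of their signal, which was not tested. For mmu-miR-30b and mmu-miR-30d no sequence was given, so shared signal with the other members could not be judged.

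Mature mmu-miR-30a lies at chr1:23272274-23272295 on the plus strand. Mature mmu-miR-30e lies at chr4:120772660-120772681 on the minus strand. Mature mmu-miR-30c comes from 2 genes, Mir30c-1 at chr4:120769584-120769606 on the minus strand and Mir30c-2 at chr1:23291714-23291736 on the plus strand, and the array cannot tell the copies apart. Mir30c-1 and Mir30e lie within 10 kb of each other, both inside the span of the protein-coding gene Nfyc, which encodes a subunit of the transcription factor NF-Y. Mir30b and Mir30d lie within 10 kb of each other on chromosome 15. Mir30a had no other gene of the family within 10 kb. Mir30a and Mir30c-2 are on the same strand, with 19.4 kb between their mature sequences. The 6 genes thus lie on 3 chromosomes, with 2 pairs inside the 10 kb limit and 1 pair outside it.

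The values below are intensities after background subtraction, averaged over the spots of a probe and then over the probes of a miRNA. They were divided by the array's own 75th percentile over the 123 mouse miRNAs that were detected on all 4 arrays (scaled signal). That percentile was 340 units on the WT ZT14 array and 503 to 537 units on the other 3. Every member was detected on every array, and all 100 spots of the family were well above background on each. Each member had 20 spots, in 2 probes or, for mmu-miR-30a, in 3. The spread given is the spot SD, that of repeated spots of a probe on the log2 scale. It describes single spots, is not the error of a mean over spots, and leaves out the error of the scaling. It covers the array and not the mice. Levels of different members are not compared, since each probe has its own response. The liver miRNA mmu-miR-122 was detected on all 4 arrays at 52210, 55940, 29410 and 52640 units (WT and Clock mutant at ZT2, then at ZT14), and all 6 hepatocyte markers were detected on each array. Of 7 muscle markers, 3 were detected on the WT ZT2 array (mmu-miR-1 at 106 units) and 0 on the others. The summed scaled signal of the leukocyte markers was 1.42 on the WT ZT2 array against 0.757 to 0.918 on the others, and that of the bile duct markers was 0.238 against 0.103 to 0.156. For the red blood cell markers it was 5.94 on the Clock mutant ZT2 array against 2.56 to 3.34, and for the endothelial markers 3.61 to 4.25 on all 4. Their part in the family's values was not tested. The comparisons of genotype at ZT14 and of time in the Clock mutant do not use the WT ZT2 array. The comparison of time in the Clock mutant does use the Clock mutant ZT2 array, where the red blood cell sum was highest. In whole liver, fewer cells of a type and less RNA per cell cannot be told apart.

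mmu-miR-30a, which is known to repress the autophagy gene Becn1, had a scaled signal at ZT2 of 2.95 in WT and 2.73 in the Clock mutant. At ZT14 these were 2.59 and 2.36. With this scaling it was lowest in the Clock mutant at ZT14 and highest in WT at ZT2, 0.32 apart (log2, spot SD 0.12). All 3 neighbouring steps in that order were larger than their spot SD. Before scaling, WT at ZT14 was the lowest array, at 880 units, against 1263 units in the Clock mutant at ZT14. The orders and steps given for all 5 members are those of the scaled signal, and the spot SD leaves out the scaling error.

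mmu-miR-30b, transcribed beside mmu-miR-30d, had a scaled signal at ZT2 of 1.02 in WT and 0.962 in the Clock mutant, and at ZT14 of 0.938 and 0.809. The order of the 4 arrays was that of mmu-miR-30a. Only the step from WT to Clock mutant at ZT14 was larger than its spot SD.

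mmu-miR-30c, known in liver for repressing Mttp, a gene of lipoprotein assembly, had a scaled signal at ZT2 of 1.98 in WT and 2.02 in the Clock mutant. In the ZT14 pools the values were 2.03 and 1.85. The first 3 arrays did not differ beyond their spot SD. The Clock mutant at ZT14 was the lowest after scaling, 0.098 below WT at ZT2 (log2, spot SD 0.077).

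mmu-miR-30d had a scaled signal at ZT2 of 0.276 in WT and 0.306 in the Clock mutant, and at ZT14 of 0.335 and 0.307. Its order was unlike that of the others. With this scaling WT at ZT2 was the lowest array and WT at ZT14 the highest, 0.28 apart (log2, spot SD 0.095). The 2 Clock mutant arrays lay between them and differed by 0.0058, less than their spot SD of 0.073. Before scaling, WT at ZT14 was instead the lowest array, at 114 units, and the Clock mutant at ZT14 the highest, at 165 units.

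mmu-miR-30e, encoded in Nfyc, had a scaled signal at ZT2 of 0.890 in WT and 0.885 in the Clock mutant. The ZT14 values were 0.814 and 0.715. The arrays came in the same order as for mmu-miR-30a. WT and Clock mutant at ZT2 did not differ beyond the spot SD, and the other steps did.

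**Figure D1:**
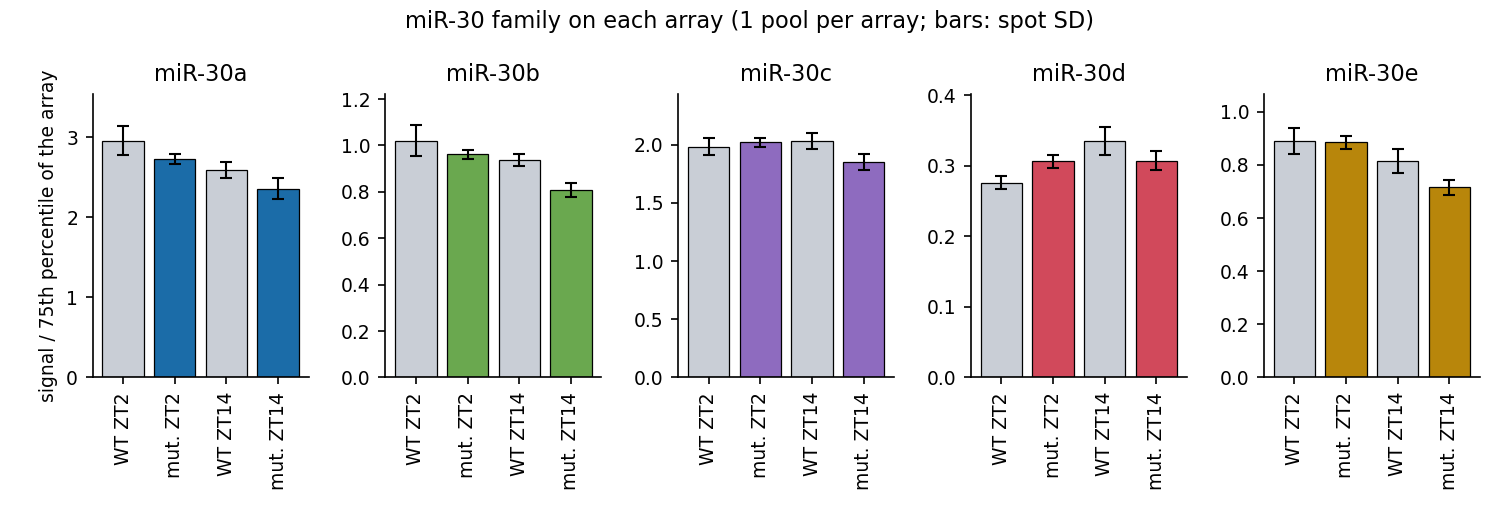
Scaled signal (signal over that array's 75th percentile, no unit) of each member on the 4 arrays, with WT in grey, Clock mutant (mut.) in colour, and error bars of 1 spot SD; each panel has its own axis from 0. mmu-miR-30a, mmu-miR-30b and mmu-miR-30e step down from WT at ZT2 to Clock mutant at ZT14, mmu-miR-30c is nearly level, and mmu-miR-30d is lowest at 0.276 in WT at ZT2, all with this scaling.

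The Clock mutation was compared with WT at each time point. At ZT2 the members were nearly level, with a median log2 ratio of Clock mutant to WT of −0.0088 against −0.010 over the 123 miRNAs. The lowest was mmu-miR-30a at −0.11 (spot SD 0.092), or 1.08-fold lower in the mutant. The highest was mmu-miR-30d at 0.15 (spot SD 0.064), or 1.11-fold higher. mmu-miR-30b was at −0.084, mmu-miR-30c at 0.026 and mmu-miR-30e at −0.0088, all within their spot SDs. No member (0 of 5) was at least 2-fold apart. Over the 123 miRNAs the share at least 2-fold apart was 1.63%.

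At ZT14 all 5 members had a lower scaled signal in the Clock mutant than in WT, a direction that turned without scaling, and the range among them was narrow. Their median log2 ratio was −0.13, against −0.031 over the 123 miRNAs. The values ran from −0.21 (spot SD 0.067) for mmu-miR-30b to −0.13 (spot SD 0.10) for mmu-miR-30d, a range of 0.088. All 5 were beyond their spot SD, and 0 were at least 2-fold apart, where the share over the 123 miRNAs was 6.5%. Ratios of the 123 miRNAs had an SD of 0.64 here, and the quartiles ran from −0.23 to 0.12, so every member lay between the quartiles.

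The direction at ZT14 rested on the scaling. Before scaling, every member was brighter on the Clock mutant array than on the WT array, by 1.36-fold to 1.45-fold. The median of the 123 miRNAs was likewise 0.63 higher on the log2 scale in the mutant without scaling. The spike-in controls were not lower on the WT ZT14 array, with a mean log2 signal of 12.64 against 12.47 to 12.55 on the others. With the spike-in controls as the scale the family median was 0.69. A factor per array cannot move the distance of the family from the other miRNAs. The family median minus the median of the 123 miRNAs was −0.10 at ZT14 and 0.0013 at ZT2, though the value at ZT14 was −0.0062 with normexp background correction and −0.064 with quantile normalization.

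**Figure D2:**
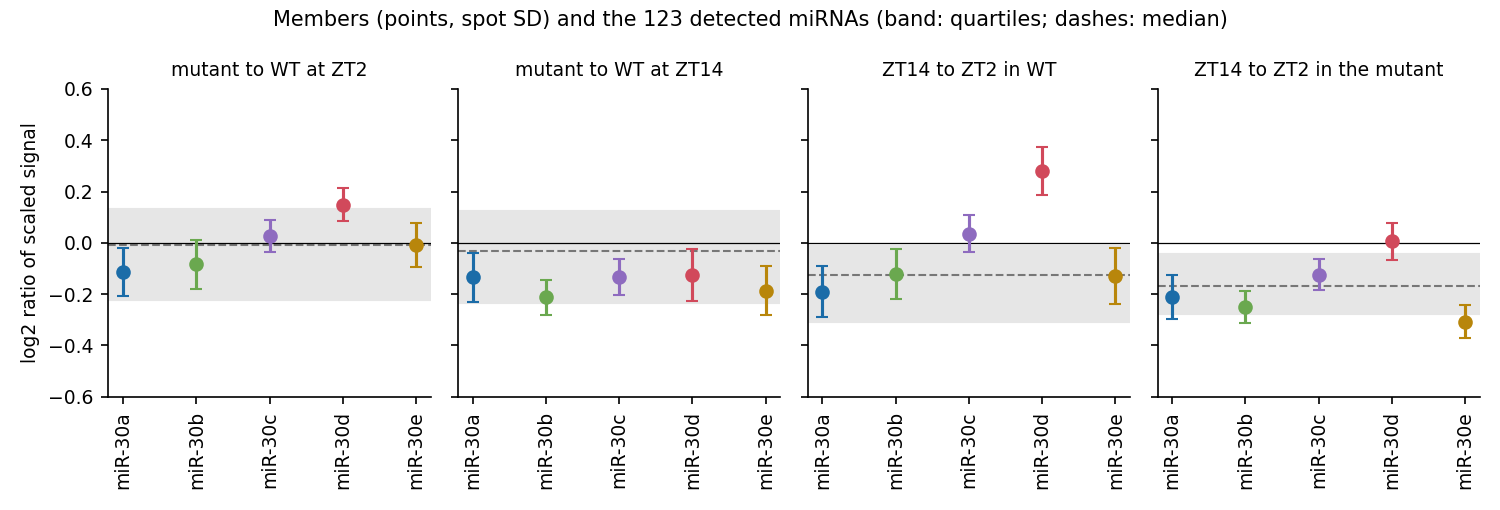
Log2 ratio of scaled signal for each member (points, error bars of 1 spot SD) in the 4 comparisons, over the quartiles (grey band) and median (dashes) of the 123 miRNAs detected on all arrays. The members sit within or near the band except mmu-miR-30d in WT, at 0.28 from ZT2 to ZT14; signs change with other scalings.

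ZT14 was compared with ZT2 within each genotype. The signs of these ratios belong to the scale used. With the 75th percentile of every mouse miRNA as the scale, all 20 ratios of the members in the 4 comparisons were above 0 (0.11 to 0.58). That percentile lies close to the detection limit. Of 611 mouse miRNAs, 193 (WT) and 161 (Clock mutant) were detected at ZT2, and 138 and 142 at ZT14. Without scaling, all 5 members were lower at ZT14 in WT. In WT the members went apart. mmu-miR-30d was higher at ZT14, with a log2 ratio of 0.28 (spot SD 0.095), or 1.21-fold. mmu-miR-30a was lower at −0.19 (spot SD 0.10), mmu-miR-30e at −0.13 (spot SD 0.11) and mmu-miR-30b at −0.12 (spot SD 0.098). mmu-miR-30c was at 0.035, within its spot SD of 0.072. Counted from the lowest ratio, mmu-miR-30d was at place 119 of the 123 miRNAs, mmu-miR-30c at 101, and the other 3 members at 46 to 65. The family median of −0.12 was close to the −0.13 of the 123 miRNAs. Of the 5 members, 0 were at least 2-fold apart, and over the 123 miRNAs the share was 2.44%.

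With this scaling the centre was lower in the Clock mutant than in WT, and mmu-miR-30d and mmu-miR-30c again had the highest ratios. mmu-miR-30e was the lowest, at −0.31 (spot SD 0.066), or 1.24-fold lower at ZT14. mmu-miR-30b was at −0.25 and mmu-miR-30a at −0.21, both beyond their spot SDs. mmu-miR-30c was at −0.12 (spot SD 0.060) and mmu-miR-30d at 0.0058 (spot SD 0.073). The median was −0.21 against −0.17 over the 123 miRNAs. Without scaling the family median was higher in the Clock mutant (−0.12) than in WT (−0.78), and likewise with spike-ins (−0.071 and −0.86). It was also higher with the percentile over all miRNAs, quantile normalization, the summed signal and the brightest probe. Under the other alternatives it stayed lower in the Clock mutant. Of the 5 members, 0 were at least 2-fold apart, and the share over the 123 miRNAs was 7.32%. The comparisons of time and of genotype share arrays, so their values are not independent.

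The difference of the genotype ratio between time points (Clock mutant to WT at ZT14 minus the same at ZT2) was −0.020 for mmu-miR-30a, −0.13 for mmu-miR-30b, −0.16 for mmu-miR-30c, −0.27 for mmu-miR-30d and −0.18 for mmu-miR-30e on the log2 scale. The spot SD of these differences was 0.094 to 0.13. Over the 123 miRNAs the median was −0.057 and the SD 0.62. The signs rested on the scaling. Without scaling all 5 differences were above 0 (0.47 to 0.73), as with spike-ins (0.61 to 0.86). With the median of detected miRNAs as scale all 5 stayed below 0 (−0.29 to −0.037). With 4 arrays for 4 groups these differences have no test.

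Genotype and time point were tested over the 4 arrays with limma (an additive fit of both factors, 1 residual degree of freedom, p-values adjusted over the 123 miRNAs). No member was called for genotype, with adjusted p-values of 0.676 to 0.968, and the share called over all 123 miRNAs was 0.0%. The log2 differences of Clock mutant from WT were −0.15 (SE 0.13) for mmu-miR-30b, −0.12 (SE 0.12) for mmu-miR-30a, −0.098 (SE 0.13) for mmu-miR-30e, −0.054 (SE 0.13) for mmu-miR-30c and 0.012 (SE 0.14) for mmu-miR-30d. No member was called for time point either, with limma's adjusted p-values of 0.525 to 0.874, and the share over all miRNAs was again 0.0%. The log2 differences of ZT14 from ZT2 were −0.22 (SE 0.13) for mmu-miR-30e, −0.20 (SE 0.12) for mmu-miR-30a, −0.19 (SE 0.13) for mmu-miR-30b, −0.045 (SE 0.13) for mmu-miR-30c and 0.14 (SE 0.14) for mmu-miR-30d. At an unadjusted p under 0.05 the limma fit had 10 miRNAs for genotype and 12 for time point, with 0 members among either. An SE near 0.13 with so few degrees of freedom leaves changes of the size seen in the family undetectable here. The residual of this additive fit is the difference of the genotype ratio between time points. A genotype effect that changes with time thus counts as error, and the fit cannot test it.

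The members were then set against each other within each array, where the scaling factor of the array cancels. For each member the mean log2 signal of the other 4 members was subtracted, and the change of this offset between arrays was taken. mmu-miR-30d gained on the other 4 members from ZT2 to ZT14 by 0.38 (spot SD 0.11) in WT and by 0.23 (spot SD 0.080) in the Clock mutant. In the Clock mutant at ZT2 it stood 0.19 (spot SD 0.077) above its WT offset. At ZT14 the genotypes differed by 0.041, less than the spot SD of 0.11. Other processing moved some of these values: with the dimmest probe of each member the gain in the Clock mutant was 0.12, and with quantile normalization the gain in WT was 0.58 and the excess at ZT2 was 0.31. In plain units, the signal of mmu-miR-30d went from 148 in WT at ZT2 to 114 in WT at ZT14, a ratio of 0.769. On the same 2 arrays mmu-miR-30a went from 1585 to 880 (0.555), mmu-miR-30b from 547 to 319 (0.582), mmu-miR-30e from 478 to 277 (0.579) and mmu-miR-30c from 1064 to 690 (0.649).

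mmu-miR-30c moved the same way as mmu-miR-30d to a smaller extent: its offset changed from ZT2 to ZT14 by 0.075 in WT and 0.066 in the Clock mutant, within spot SDs of 0.088 and 0.070. mmu-miR-30a had the largest change downward in WT, −0.21 (spot SD 0.11), and mmu-miR-30e in the Clock mutant, −0.16 (spot SD 0.075). Offsets of the members are tied to each other, since each is taken against the rest.

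**Figure D3:**
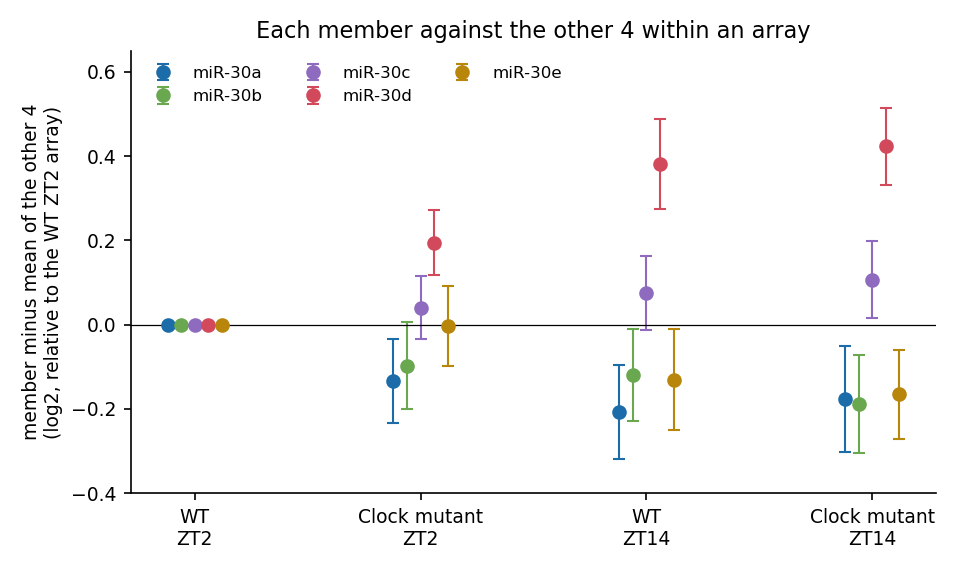
Offset of each member from the mean of the other 4 members on the same array (log2), relative to its offset on the WT ZT2 array; error bars are 1 spot SD of both arrays. mmu-miR-30d is above the others on each of the 3 other arrays, by 0.38 in WT at ZT14, and mmu-miR-30c is the next.

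The members with the closest profiles were not those from neighbouring genes. mmu-miR-30b and mmu-miR-30d, whose genes are within 10 kb, had time changes in WT that differed by 0.40 on the log2 scale (spot SD 0.14) and in the Clock mutant by 0.26 (spot SD 0.096). Their profiles over the 4 arrays were 0.19 apart (root mean square of centred log2 values). The closest profiles in the family were those of mmu-miR-30a and mmu-miR-30b, 0.031 apart, from genes on different chromosomes. mmu-miR-30b and mmu-miR-30e were 0.033 apart and mmu-miR-30a and mmu-miR-30e 0.042. Within each of these closest pairs the changes differed by less than the spot SD in every comparison, so these pairs are not ranked. Signal shared between the probes of mmu-miR-30a and mmu-miR-30e was not tested. mmu-miR-30c and mmu-miR-30e, with neighbouring genes in Nfyc, were 0.090 apart. Their changes over time in the Clock mutant differed by 0.18, where probes of 1 member were up to 0.19 apart. mmu-miR-30c also has its copy on chromosome 1. mmu-miR-30a and mmu-miR-30c, which share the wider pair on that chromosome, were 0.092 apart.

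In WT the probes of a member gave like changes over time. Over the 11 probes, the change from ZT2 to ZT14 in WT ran from −0.21 to 0.29 on the log2 scale, and the probes of 1 member were at most 0.075 apart. The 2 probes of mmu-miR-30d were at 0.29 and 0.28, above the 9 other probes, which ran from −0.21 to 0.060. The probes of mmu-miR-30d were among the dimmest of the family, so a probe of like brightness is given beside them. The dimmer probe of mmu-miR-30b read 156 units in WT at ZT2 and 92.9 units in WT at ZT14, a ratio of 0.597 before scaling. The dimmer probe of mmu-miR-30d read 129 and 99.9 units, a ratio of 0.772, and its other probe 167 and 128 units, a ratio of 0.767. The negative control spots averaged 5.48 units in WT at ZT2 and 8.32 units in WT at ZT14. With that mean taken off every array, the gain of mmu-miR-30d on the other members was 0.34 in WT and 0.20 in the Clock mutant. This subtraction was added after seeing the data. The part of brightness or background in the gain was not tested.

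In the Clock mutant the probes of a member were up to 0.19 apart in their change from ZT2 to ZT14. For mmu-miR-30c the brighter probe was at −0.16 and the dimmer at 0.029, and for mmu-miR-30e they were at −0.35 and −0.17. For mmu-miR-30b they were at −0.27 and −0.16. The 3 probes of mmu-miR-30a ran from −0.24 to −0.053, again with the dimmest as the highest. The probes of mmu-miR-30d were at 0.033 (the dimmer) and −0.016. In each member the dimmest probe thus had the highest ratio in the Clock mutant, and the part of brightness was not tested.

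**Figure D4:**
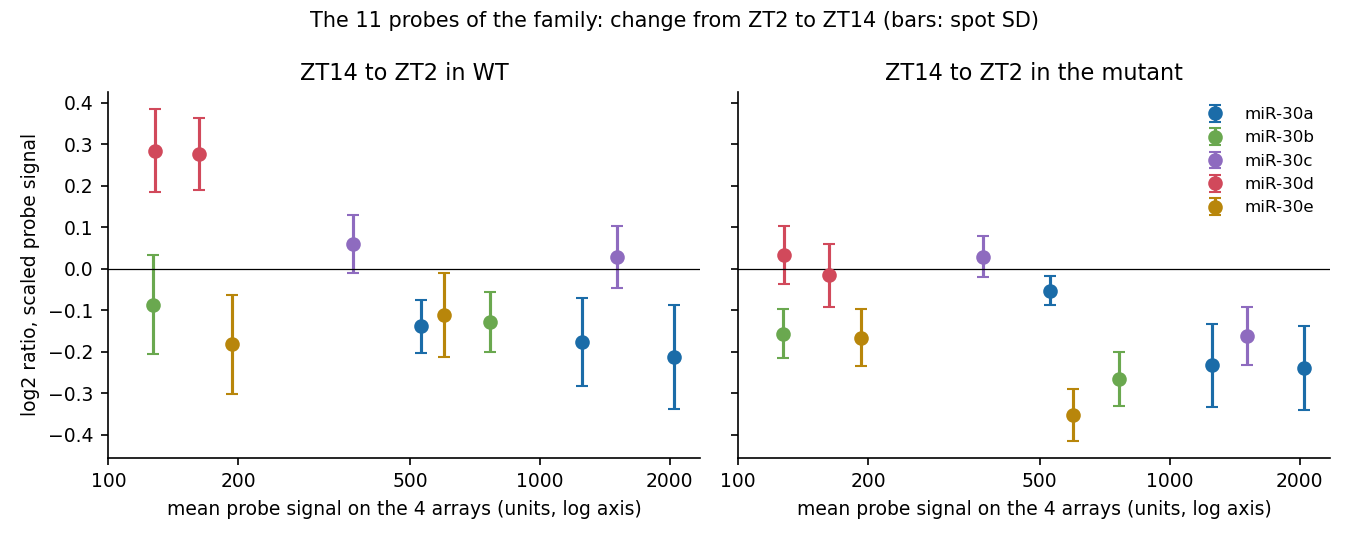
Log2 ratio of ZT14 to ZT2 for each of the 11 probes (error bars of 1 spot SD), in WT (left) and in the Clock mutant (right), against the probe's mean signal on the 4 arrays (units, log axis). In WT the 2 mmu-miR-30d probes stand at 0.28 and 0.29, and a mmu-miR-30b probe of like brightness at −0.087. In the Clock mutant the mmu-miR-30d probes stand at −0.016 and 0.033, and that mmu-miR-30b probe at −0.16.

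The star strands come from the other arm of the same hairpins. Of the 5 on the array, mmu-miR-30a*, mmu-miR-30c-2* and mmu-miR-30e* were detected on all 4 arrays, and mmu-miR-30b* and mmu-miR-30c-1* on none. The star strands of the 2 miR-30c genes are shown because, unlike the shared mature strand, they differ between the genes. They differ by G9A, U12C and C22U, from mmu-miR-30c-1-3p to mmu-miR-30c-2-3p, and capitals again mark bases 2 to 8.
mmu-miR-30c-1-3p: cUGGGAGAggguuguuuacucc
mmu-miR-30c-2-3p: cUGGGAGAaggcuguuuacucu
The star strand of Mir30c-2 read 12.0 to 21.1 units on the 4 arrays and that of Mir30c-1 at most 5.63 units. Each strand has its own probes, so these levels do not rank the 2 genes. mmu-miR-384-5p, which has the family seed, was detected on no array.

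mmu-miR-30a* read 99.5 units in the WT pool and 90.1 in the Clock mutant pool at ZT2. The ZT14 pools read 57.8 and 101 units. At ZT14 its scaled log2 ratio of Clock mutant to WT was 0.15 (spot SD 0.16), while mmu-miR-30a itself was at −0.13 (spot SD 0.095). mmu-miR-30e* read 46.4 units in the WT pool and 40.8 in the Clock mutant pool at ZT2. The ZT14 pools read 28.1 and 53.3 units. Its log2 ratio at ZT14 was 0.27 (spot SD 0.22), while mmu-miR-30e was at −0.19 (spot SD 0.095). For both hairpins the star strand thus had the higher ratio at ZT14, though that of mmu-miR-30a* was within its spot SD. The dimmer probe of mmu-miR-30e* read 14.3 (WT) and 28.7 (Clock mutant) units at ZT14. Negative control spots averaged 8.32 and 9.72 units on these arrays, and the part of background was not tested. The log2 ratio of mmu-miR-30c-2* at ZT14 was −0.033 with a spot SD of 0.65, too wide to set against mmu-miR-30c. At ZT2 mmu-miR-30a* was at −0.050 and mmu-miR-30e* at −0.094, both within their spot SDs.

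Other miRNAs had profiles as close to the family as its own members. Over the 4 arrays, the mean centred profile of the family was 0.054 and 0.047 at ZT2 (WT, then Clock mutant) and 0.029 and −0.13 at ZT14. The nearest of 118 other miRNAs was mmu-miR-29a, at a root mean square distance of 0.012 on the log2 scale. Next were mmu-miR-26b at 0.026, mmu-miR-22 at 0.042, mmu-miR-26a at 0.048 and mmu-miR-1904 at 0.051. The members themselves were at 0.032 (mmu-miR-30c) to 0.13 (mmu-miR-30d). Of the 118 miRNAs, 56 were nearer to the family mean than mmu-miR-30d was, and the median distance was 0.14. With 4 points a small distance is common and is given only as a description.

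**Figure D5:**
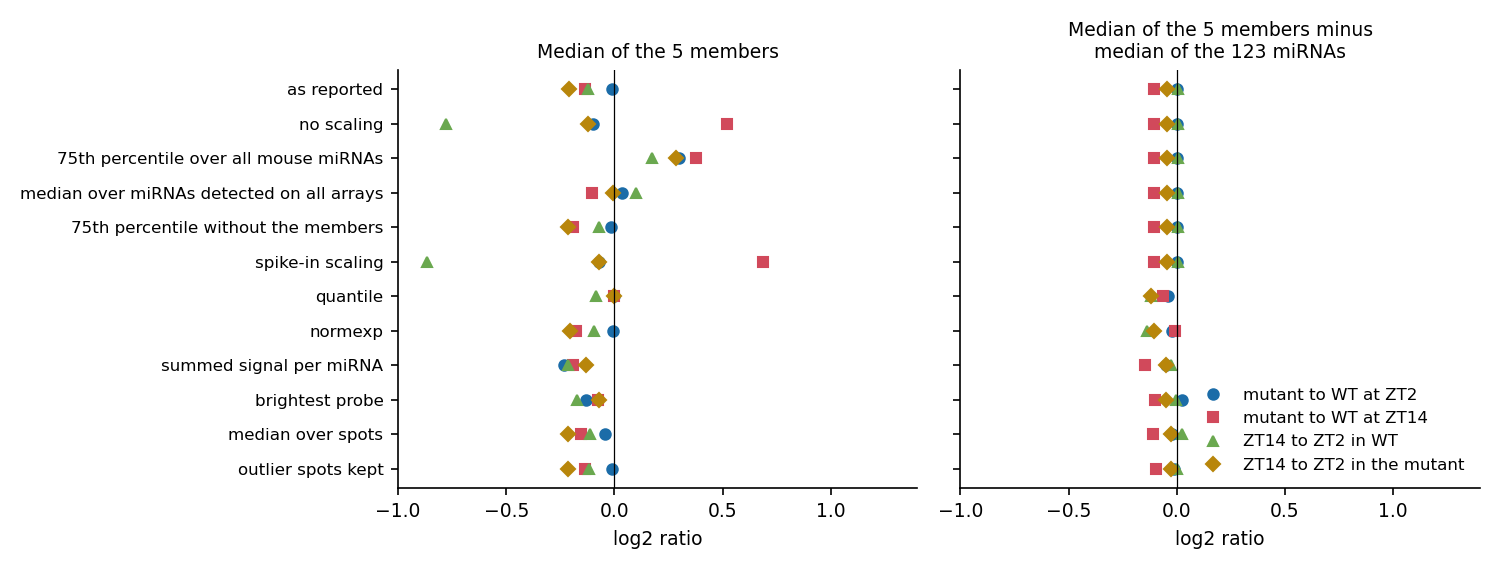
Median log2 ratio of the 5 members (left) and the same minus the median of the 123 miRNAs (right), for the 4 comparisons (symbols) as reported and under 11 other ways of processing the arrays (rows). On the left the values move from side to side with the scaling, from −0.86 to 0.69; on the right each comparison keeps 1 value under every per-array factor, such as −0.10 for the Clock mutant to WT at ZT14.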

How the data were processed

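Liver miRNAs were measured on 4 one-colour Agilent arrays, 1 pool of 3 mice each. The authors deposited the scanner output of Agilent Feature Extraction 10.7.1.1, whose intensity per spot is background-subtracted on a linear scale, and a table of log2 values per miRNA. Their methods give Agi4x44PreProcess as the software, with 2-fold as the threshold; how arrays were normalized is not given in the sources used here. The files name no genome build. Matched to the scanner's summed signal, the authors' log2 values of the 5 members equal its log2 minus 1 number per array: 4.18 (WT) and 3.27 (Clock mutant) at ZT2, and −3.32, the log2 of the 0.1 given to undetected miRNAs, for both at ZT14. At ZT14 that number was thus the floor of undetected miRNAs and the same for both arrays. Of 611 mouse miRNAs, 418 (WT) and 450 (Clock mutant) were undetected at ZT2, and 473 and 469 at ZT14. Which rule gave these numbers was not tested, and the table was used only as an alternative.

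Outlier spots were left out, spots averaged per probe and probes per miRNA, and each array was divided by its 75th percentile over those 123 mouse miRNAs that Feature Extraction called detected on every array. The spot SD is the coefficient of variation among the spots of each probe, pooled and put on the log2 scale, combined over the arrays compared. The number of arrays limits the precision. No spot was saturated. Ratios of 2 arrays have no test. Genotype and time point were fitted with limma 3.58.1 in R 4.3.3, with Benjamini-Hochberg adjustment and a threshold of 0.05. The fit was run on simulated data with changes far larger than those of the family. That run says nothing of changes of the family's size. Python 3.11.15 with matplotlib 3.10.9, numpy 2.4.6 and pandas 2.3.3 did the rest.

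The members, marker lists and tests were chosen with earlier results of these data known. The text names the 5 members, the star strands, miRNAs of the same seed, the 5 nearest profiles and mmu-miR-122. Alternatives were 5 other scalings (none, spike-in controls, the median of detected miRNAs, their 75th percentile without the members, and that of every mouse miRNA), quantile normalization with a floor of 1, normexp with an offset of 50, the summed signal per miRNA, the brightest probe, the median over spots, outlier spots kept and the authors' table. For limma they also included an intensity trend, each factor alone, 195 miRNAs detected on at least 1 array, and each array left out. Sequences and coordinates are from RefSeq, build GRCm38.p6.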

Additional observations from a re-analysis of the deposited data

Results flagged for a closer look

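mmu-miR-30d had its ratio of Clock mutant to WT on opposite sides of 0 at the 2 time points, both beyond the spot SD: 0.15 at ZT2 and −0.13 at ZT14, a difference of −0.27 (spot SD 0.12) on the log2 scale. There was 1 array per group and this difference was not tested. It was −0.41 in the authors' table and −0.30 with normexp, and it was 0.47 without scaling and 0.61 with spike-ins. The opposite signs were lost under 6 of 12 alternatives: no scaling, the 75th percentile of every mouse miRNA, spike-ins, the summed signal, the brightest probe and the authors' table. The ratios at ZT2 and ZT14 were, for example, 0.46 and 0.38 with that percentile and −0.075 and −0.18 with the summed signal. Against the other 4 members, the ratio of mmu-miR-30d was 0.19 at ZT2 and 0.041 at ZT14.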

How the results depend on the processing

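The sizes and signs of the family medians depended on the scale. Among the scales, the percentile over all mouse miRNAs lies close to the detection limit. The median ratio of Clock mutant to WT at ZT2 was −0.10 without scaling, 0.30 with the 75th percentile of every mouse miRNA, −0.23 with the summed signal, −0.13 with the brightest probe and 0.80 in the authors' table. At ZT14 it was 0.52 without scaling, 0.38 with the percentile over all miRNAs, 0.69 with spike-ins, 0.0 with quantile normalization and 0.54 in the authors' table. For ZT14 against ZT2 in WT the median was −0.78 without scaling, 0.17 with the percentile over all miRNAs, 0.10 with the median as scale, −0.86 with spike-ins and 6.78 in the authors' table. In the mutant it was −0.12 without scaling, 0.29 with the percentile over all miRNAs, −0.0052 with the median as scale, −0.071 with spike-ins, 0.0 with quantile normalization, −0.13 with the summed signal, −0.073 with the brightest probe and 6.55 in the authors' table. The authors' table put all 5 members, and all 123 miRNAs, past 2-fold for time in both genotypes, and limma called all 5 for genotype (with 79 of 123 miRNAs) and all 5 for time point (with 123 of 123); its array constants differ by 0.92 between the arrays at ZT2 and by 6.59 to 7.51 between time points. Under the other alternatives 0 members were 2-fold apart (0 to 34 of the 123 miRNAs were) and limma called 0 members (0 to 13 of the 123), with lowest adjusted p-values of 0.103 to 0.985 for genotype and 0.274 to 0.847 for time point. With 1 array left out, both factors could not be fitted together, and these fits held 1 factor alone. They called 0 members, and with 1 group missing they say nothing of stability. At 1.5-fold, 0 members passed with the reported scaling. In a check added after seeing the data, 4 members passed for time in WT without scaling (with 104 of the 123 miRNAs) and with spike-ins (with 115), and 5 passed for genotype at ZT14 with spike-ins (with 100).

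The genotype difference between time points of mmu-miR-30a, mmu-miR-30b, mmu-miR-30c, mmu-miR-30d and mmu-miR-30e, in that order, was 0.73, 0.62, 0.59, 0.47 and 0.57 without scaling. With the percentile over all miRNAs it was 0.18, 0.073, 0.042, −0.073 and 0.024, and with spike-ins 0.86, 0.75, 0.72, 0.61 and 0.71. With the summed signal it was 0.15, 0.041, 0.010, −0.11 and −0.0083, with the brightest probe 0.20, 0.089, 0.037, −0.065 and −0.013, and in the authors' table −0.16, −0.26, −0.30, −0.41 and −0.31. Quantile normalization moved it to 0.17 for mmu-miR-30a, 0.0 for mmu-miR-30c and 0.0 for mmu-miR-30e. So only mmu-miR-30d stayed below 0 under each alternative but no scaling and spike-ins.

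The gain of mmu-miR-30d on the other 4 members was recomputed under 15 alternatives, chosen after seeing the data. In 5 of them, the scalings by 1 factor per array, it cannot change. In the other 10 it was above 0 from ZT2 to ZT14, from 0.34 to 0.58 in WT (0.58 with quantile normalization) and from 0.12 to 0.24 in the mutant (0.12 with the dimmest probe of each member). At ZT2 the mutant's excess over WT ran from 0.16 to 0.31: 0.31 with quantile normalization, 0.28 with the dimmest probes and 0.29 against the dimmer mmu-miR-30b probe alone. At ZT14 it ran from −0.045 to 0.086. The family median minus the median of the 123 miRNAs for the mutant at ZT14, −0.10 as reported, was −0.0062 with normexp, −0.064 with quantile normalization and −0.15 with the summed signal. No paired analysis was possible because each group had 1 array and no replicates. Signal over background limits the star strands more than the members, whose dimmest probe was at least 11.1 times the negative controls.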
